A study of Mus musculus with 9 samples.

Results

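The genes described here are 10 CC chemokine ligands, Ccl2, Ccl3, Ccl4, Ccl5, Ccl6, Ccl7, Ccl9, Ccl12, Ccl17 and Ccl22, taken by gene name from the 54532 genes of the deposited expression table. They were measured in RNA of BV2, a mouse line of immortalized microglia, in 3 groups with 3 libraries each. The Ctrl group was kept in complete medium, the OGD group underwent oxygen glucose deprivation (low-glucose medium with reduced serum in a hypoxic chamber), and the OGD + A-485 group underwent the same deprivation in the presence of A-485, which inhibits the acetyltransferase P300. In the study's other assays of A-485, exposure lasted 24 h at 50 μM, and the sequenced cells are taken to have had the same. A group with A-485 in complete medium was not analysed, and within OGD the parts of oxygen, glucose and serum cannot be told apart. All libraries came from 1 cell line, and the labels do not say whether libraries of a group came from separate cultures, so the p-values measure the spread between these libraries only.

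Chemokines are small secreted proteins that attract leukocytes along a concentration gradient through G protein-coupled receptors, and the CC class is named for a pair of adjacent cysteines near the amino terminus. Microglia and macrophages are major sources of these ligands in injured brain. Ccl3, Ccl4 and Ccl5 are macrophage inflammatory ligands that attract monocytes and T cells. Ccl2, Ccl7 and Ccl12 are monocyte chemoattractants of the receptor Ccr2, Ccl6 and Ccl9 are rodent ligands of Ccr1, and Ccl17 and Ccl22 are ligands of the T cell receptor Ccr4.

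The libraries held between 12593250 and 16091038 reads on genes, and 1 read on a gene of 1 kb was worth 0.0618 to 0.0786 FPKM (fragments scaled by the authors to gene length and library size). Of 13 microglia and macrophage markers, 11 had a mean of at least 1 FPKM, whereas P2ry12 and Sall1 did not. Their summed level lay between 447 and 465 FPKM in Ctrl, between 582 and 601 in OGD and between 1068 and 1088 in OGD + A-485. Marker sums stayed at or below 0.0337 FPKM for neurons, 0.150 for astrocytes, 0.0680 for T cells and 0.0234 for fibroblasts in every library. The sums were 1.02 to 2.36 FPKM for 3 oligodendrocyte markers, of which 1 was at 0 throughout, and 0.498 to 1.53 for 3 endothelial markers, of which 1 was at 0 throughout. The sum of 4 dendritic cell markers lay between 8.19 and 9.26 FPKM in Ctrl, between 17.8 and 19.8 in OGD and between 11.4 and 12.8 in OGD + A-485, nearly all of it from the integrin Itgax, which macrophages also make. The part of these marker shifts in the ligand results was not tested.

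On GRCm38, the build named in the submitters' processing notes, 8 of the ligand genes lie on chromosome 11 in a pair of groups, and the deposited coordinates of all 10 were those of GENCODE M21. The first group holds Ccl2 (82035571 to 82037453), Ccl7 (82045712 to 82047525) and Ccl12 (82101845 to 82103400), all on the plus strand. The second holds Ccl5 (83525778 to 83530518), Ccl9 (83572919 to 83578636), Ccl6 (83587882 to 83593087) and Ccl3 (83647844 to 83649355) on the minus strand and Ccl4 (83662584 to 83664683) on the plus strand. Ccl22 (94745590 to 94751699) and Ccl17 (94810453 to 94812036) lie on the plus strand of chromosome 8. Ccl6 and Ccl9 are separated by 9245 bases, and Ccl2 and Ccl7 by 8258 bases. All 10 are annotated as protein coding, and the values refer to whole genes rather than to single exons.

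Promoter sequence from RefSeq (GRCm38.p6) was found for 6 of the 10 genes, namely Ccl3, Ccl6, Ccl9, Ccl12, Ccl17 and Ccl22. The 250 bases before the start site are printed, in the direction of the gene, for Ccl9 and Ccl6, neighbours that moved in opposite directions under A-485, for Ccl3, the most abundant ligand, and for Ccl12, which did not fall with its neighbours. They stand at chr11:83578637-83578886 (minus strand) for Ccl9, chr11:83593088-83593337 (minus strand) for Ccl6, chr11:83649379-83649628 (minus strand) for Ccl3 and chr11:82101595-82101844 (plus strand) for Ccl12. Capitals mark matches, on either strand, to the motifs searched.
Ccl9: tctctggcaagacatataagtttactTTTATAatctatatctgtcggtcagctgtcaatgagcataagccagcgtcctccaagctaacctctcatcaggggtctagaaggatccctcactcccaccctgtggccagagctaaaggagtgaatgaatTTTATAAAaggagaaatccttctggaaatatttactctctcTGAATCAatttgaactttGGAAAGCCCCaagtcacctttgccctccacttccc
Ccl6: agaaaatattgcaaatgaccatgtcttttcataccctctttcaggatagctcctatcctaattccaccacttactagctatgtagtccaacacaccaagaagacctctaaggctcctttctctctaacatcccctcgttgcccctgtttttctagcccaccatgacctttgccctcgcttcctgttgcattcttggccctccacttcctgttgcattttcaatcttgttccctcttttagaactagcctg
Ccl3: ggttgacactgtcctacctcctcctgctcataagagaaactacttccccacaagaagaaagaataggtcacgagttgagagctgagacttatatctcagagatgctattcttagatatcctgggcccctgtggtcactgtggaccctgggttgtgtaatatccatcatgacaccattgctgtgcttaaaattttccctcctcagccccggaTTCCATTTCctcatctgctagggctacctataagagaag
Ccl12: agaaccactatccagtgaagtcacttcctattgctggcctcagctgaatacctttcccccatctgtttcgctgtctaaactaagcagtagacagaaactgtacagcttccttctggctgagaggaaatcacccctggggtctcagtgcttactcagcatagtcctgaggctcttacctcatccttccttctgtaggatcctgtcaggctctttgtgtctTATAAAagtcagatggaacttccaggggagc

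The 10 motifs were searched on both strands in windows of 250 bases before to 50 bases after the start site. The share of all 32851 windows of the table that held each was 13.6% for the TATA box motif TATAAA, 14.0% for GGGNNNTTC and 5.82% for GGNNTTTCC (both NF-kB), 7.81% for TGANTCA (AP-1) and 10.8% for TTGCNNAA (C/EBP). For the remaining motifs it was 8.56% for GAAANNGAA (interferon response element), 1.79% for TGACGTCA (cAMP response element), 19.6% for ACGTG (core of the hypoxia response element), 3.2% for GAGGAAGT (PU.1) and 8.3% for TTCNNNGAA (STAT). In the Ccl9 window, both NF-kB patterns matched in overlap, with the first base 35 and 34 bases before the start, and the AP-1 pattern matched 53 bases before it. TATAAA matched 3 times in the Ccl9 window, 224, 94 and 92 bases before the start, the last pair overlapping on opposite strands. None of the 10 motifs matched in the Ccl6 window. A single match was present for Ccl3 (the interferon response pattern, 39 bases before the start) and for Ccl12 (TATAAA, 31 bases before it). Ccl17 held the STAT pattern 99 bases before the start and an NF-kB pattern 10 bases after it, and Ccl22 held none. The RefSeq start of Ccl22 differs from that of the deposited gene. Its 250 bases before the start ran from 94745434 to 94745683, past the deposited start at 94745590, and so lay partly inside the gene. For Ccl3 those bases began at 83649379, a short way beyond the deposited end at 83649355. A local alignment of the Ccl9 and Ccl6 windows covered 74 positions, of which 59 (79.7%) were identical, between base 18 before and base 48 after the Ccl9 start, and so it did not reach the AP-1 and NF-kB matches of Ccl9. These matches describe letters and not occupied sites.

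The ligands spanned nearly the whole range of expression of the cells. Together they summed to 3374 ± 148 FPKM in Ctrl, 7485 ± 680 in OGD and 2934 ± 299 in OGD + A-485 (mean ± SD, n = 3). Their reads made up 0.285%, 0.605% and 0.236% of all reads on genes. Ccl3 ranked 6th of 23621 detected genes in Ctrl, 4th of 23555 in OGD and 5th of 23642 in OGD + A-485 by mean FPKM. Ccl4 stood at rank 37, 15 and 104 and Ccl2 at rank 61, 26 and 108. Ccl2, Ccl3, Ccl4 and Ccl7 carried 98.8% of the summed FPKM in Ctrl, 99.1% in OGD and 96.8% in OGD + A-485. Within that sum the share of Ccl6 went from 0.657% in Ctrl to 0.398% in OGD and 2.63% in OGD + A-485. At the other end, Ccl17 and Ccl22 were covered by at most 3 and 22 reads in any library.

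**Figure D1:**
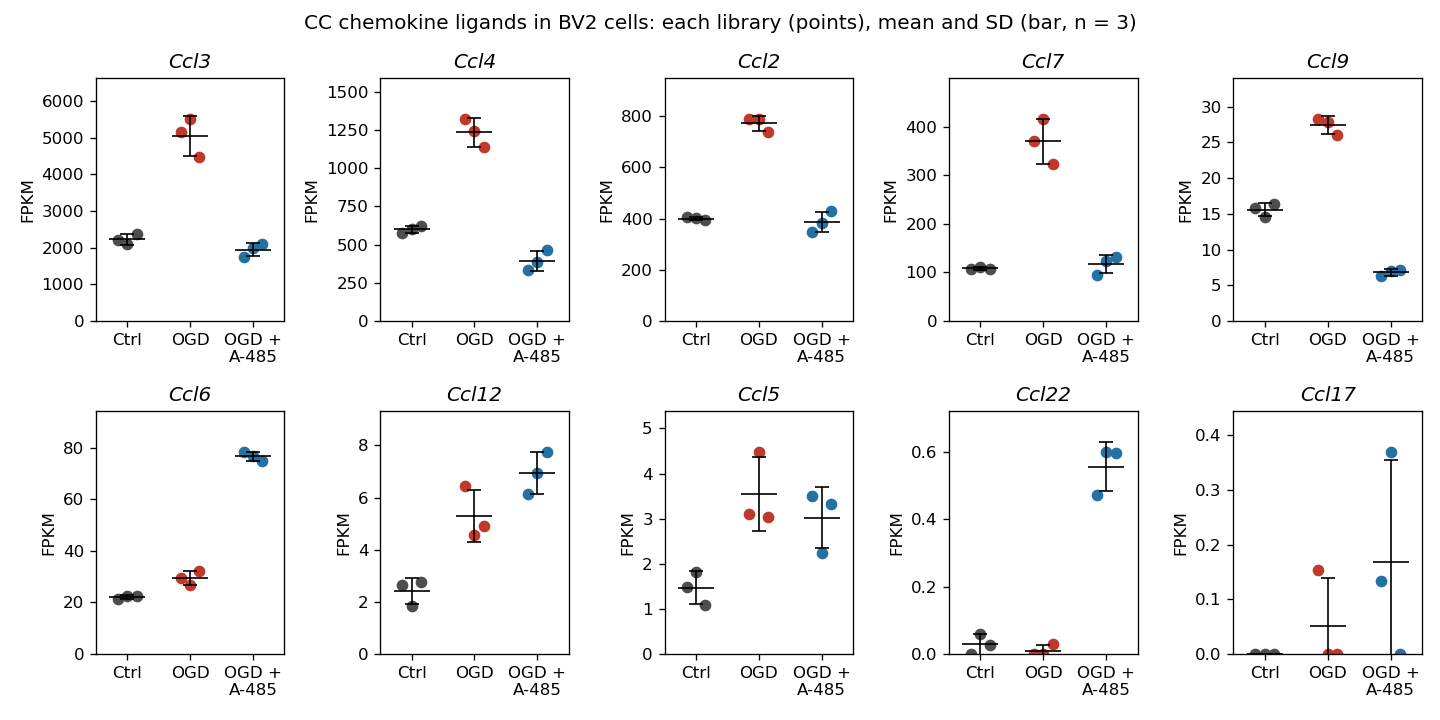
Expression of the 10 CC chemokine ligands in FPKM (vertical axis, starting at 0, own scale per gene) in Ctrl, OGD and OGD + A-485. Points are libraries and bars are mean and SD (n = 3); Ccl3, Ccl4, Ccl2, Ccl7 and Ccl9 peaked in OGD, whereas Ccl6 and Ccl22 stood highest in OGD + A-485.

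Changes were tested with limma on log2(FPKM + 0.1) over 16123 genes whose mean reached 0.2 FPKM, a scale that understates the change of low genes. Calls required a p-value below 0.01 before adjustment together with a log2 fold change beyond ±0.5, as in the methods of the study. Of the 10 ligands, 8 passed the filter, and Ccl17 and Ccl22 did not. The ligands were chosen with earlier results of these data known. The shares over all genes are therefore given for scale and not as a test. In OGD against Ctrl, 7 of the 8 tested ligands rose and 0 fell, where 11.2% of all tested genes were called higher and 9.81% lower. All 8 were higher in each OGD library than in each Ctrl library, which held for 28.0% of all tested genes. The median log2 fold change of the 8 was 1.08, beside 0.01 over all tested genes. In OGD + A-485 against OGD, 5 ligands fell (Ccl2, Ccl3, Ccl4, Ccl7 and Ccl9), 1 rose (Ccl6) and 2 were not called, where 13.4% of all tested genes were called lower and 12.2% higher. The median here was -1.19, beside 0.01 over all tested genes. In OGD + A-485 against Ctrl, 3 ligands were higher (Ccl5, Ccl6 and Ccl12) and 2 lower (Ccl4 and Ccl9), where 17.0% of all tested genes were called higher and 16.6% lower. The first and the second comparison share the 3 OGD libraries, so their values are given side by side and not related to each other. Because the libraries are bulk, fewer producing cells and less RNA per cell cannot be told apart.

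**Figure D2:**
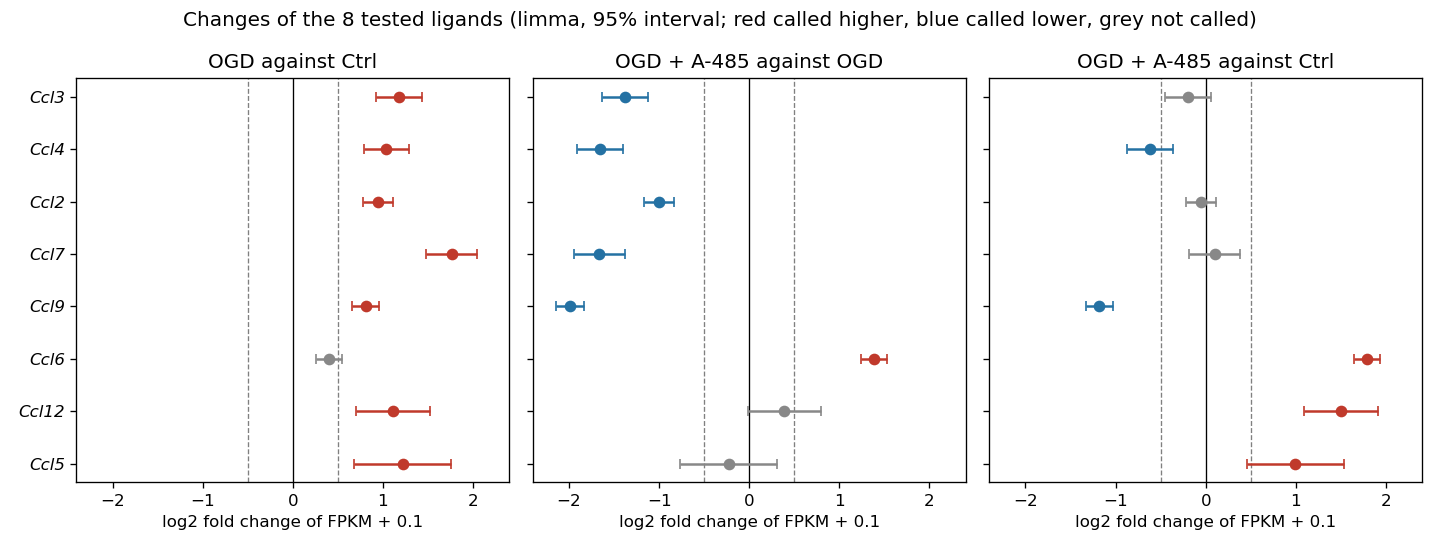
Log2 fold changes of log2(FPKM + 0.1) (horizontal axis) of the 8 tested ligands in the 3 comparisons. Points are limma estimates with 95% intervals, colours give the call, and dashed lines stand at ±0.5; in OGD against Ctrl all 8 estimates lie right of 0, and in OGD + A-485 against OGD those of Ccl9, Ccl4, Ccl7, Ccl3 and Ccl2 are called lower and that of Ccl6 is called higher.

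Ccl3, a chemoattractant of monocytes and T cells and the most abundant of the 10, measured 2215, 2089 and 2370 FPKM in the Ctrl libraries, 5157, 5512 and 4459 in OGD, and 1745, 1982 and 2098 in OGD + A-485. Every OGD library was above every other library, and the Ctrl and OGD + A-485 ranges overlapped narrowly. The log2 fold change was 1.18 (SE 0.11, adjusted p = 4.42e-05, limma with Benjamini-Hochberg adjustment) in OGD against Ctrl and -1.38 (SE 0.11, adjusted p = 1.3e-05) in OGD + A-485 against OGD. Against Ctrl, OGD + A-485 differed by -0.20, with a 95% interval of -0.45 to 0.06 (adjusted p = 0.163). Under quantile normalization, which assigns every library the same set of values, both calls of Ccl3 ended, at log2 fold changes of 0.85 (limma, adjusted p = 0.0347) and -0.80 (adjusted p = 0.0392), because the unadjusted values were above 0.01.

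Ccl4, a macrophage inflammatory ligand like Ccl3, lies 13228 bases from it. It measured 575, 601 and 623 FPKM in Ctrl, 1323, 1243 and 1136 in OGD, and 336, 384 and 462 in OGD + A-485. The 3 groups did not overlap, and the inhibitor group was the lowest. Ccl4 rose by 1.04 on the log2 scale in OGD (SE 0.11, adjusted p = 8.46e-05, limma), and with A-485 it fell by 1.66 (SE 0.11, adjusted p = 4.07e-06). It ended below Ctrl, with a log2 fold change of -0.62 (SE 0.11, adjusted p = 0.00119).

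Ccl5, which recruits T cells and monocytes, was expressed far below Ccl3. It measured 1.48, 1.83 and 1.09 FPKM in Ctrl, 3.11, 4.48 and 3.04 in OGD, and 3.49, 2.24 and 3.32 in OGD + A-485, from 17 to 56 reads per library. Both OGD groups were above Ctrl and overlapped each other. The log2 fold change was 1.22 in OGD against Ctrl (SE 0.24, adjusted p = 0.00268, limma). In OGD + A-485 against OGD it was -0.23, with a 95% interval of -0.76 to 0.31 (adjusted p = 0.466), so a fall of the size seen for Ccl3 lay outside the interval. Against Ctrl it was 0.995 (adjusted p = 0.00592), a call that ended without Ctrl replicate 3 (0.81), without OGD + A-485 replicate 1 (0.88) or without OGD + A-485 replicate 3 (0.92).

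The monocyte chemoattractants Ccl2 and Ccl7 moved with Ccl3 and Ccl4. Ccl2, the main signal that draws monocytes through Ccr2, measured 405, 402 and 393 FPKM in Ctrl, 789, 790 and 737 in OGD, and 349, 384 and 430 in OGD + A-485. All OGD libraries were above all others, and the other groups overlapped. Ccl2 rose by 0.95 on the log2 scale in OGD (SE 0.07, adjusted p = 1.47e-05, limma) and fell by 0.999 with A-485 (SE 0.07, adjusted p = 7.59e-06). Against Ctrl, the OGD + A-485 group differed by -0.05, with a 95% interval of -0.22 to 0.12 (adjusted p = 0.584). Quantile normalization gave -0.54 for the last value and called it lower.

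Ccl7, also a ligand of Ccr2, had the largest rise of the 8 in OGD. It measured 107, 111 and 107 FPKM in Ctrl, 371, 416 and 322 in OGD, and 95.8, 124 and 132 in OGD + A-485. The OGD libraries again stood apart, and Ctrl lay within the OGD + A-485 range. Its log2 fold change was 1.76 in OGD against Ctrl (SE 0.12, adjusted p = 8.7e-06, limma) and -1.66 in OGD + A-485 against OGD (SE 0.12, adjusted p = 8.25e-06). Against Ctrl it was 0.10 with a 95% interval of -0.18 to 0.38 (adjusted p = 0.527), and it turned to -0.06 under quantile normalization and to -0.01 with the same total per library.

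Ccl12, the third gene of that group and a further monocyte chemoattractant, rose in OGD and did not fall with A-485. It measured 2.65, 1.83 and 2.76 FPKM in Ctrl, 6.44, 4.58 and 4.90 in OGD, and 6.12, 6.96 and 7.75 in OGD + A-485, from 14 to 60 reads per library. Ctrl was below every other library, and the OGD and OGD + A-485 ranges overlapped. Ccl12 rose by 1.11 on the log2 scale in OGD (SE 0.18, adjusted p = 0.000964, limma). With A-485 it differed from OGD by 0.39, with a 95% interval of -0.02 to 0.80 (adjusted p = 0.104), which leaves out any fall of the size of Ccl2 or Ccl7. Against Ctrl the log2 fold change was 1.502 (SE 0.18, adjusted p = 9.65e-05).

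Ccl9 and Ccl6, adjacent ligands of Ccr1, diverged under the inhibitor. Ccl9, known from macrophages and osteoclasts, measured 15.8, 14.6 and 16.4 FPKM in Ctrl, 28.3, 27.9 and 26.0 in OGD, and 6.29, 7.07 and 7.15 in OGD + A-485. The 3 groups were far apart, with the inhibitor group lowest. Ccl9 rose by 0.81 on the log2 scale in OGD (SE 0.07, adjusted p = 2.01e-05, limma), and its fall of 1.99 with A-485 (SE 0.07, adjusted p = 1.04e-07) was the largest of the 8. It ended 1.18 below Ctrl (log2 fold change -1.18, SE 0.07, adjusted p = 8.67e-07).

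Ccl6, a macrophage ligand induced by type 2 cytokines, measured 21.2, 22.6 and 22.6 FPKM in Ctrl, 29.4, 26.8 and 32.1 in OGD, and 78.4, 76.7 and 74.9 in OGD + A-485. The groups did not overlap, and the inhibitor libraries were all far above any other. In OGD against Ctrl the log2 fold change was 0.41 (SE 0.06, adjusted p = 0.000767, limma), under the 0.5 that a call required. In OGD + A-485 Ccl6 rose by 1.38 over OGD (SE 0.06, adjusted p = 4.98e-07) and by 1.79 over Ctrl (SE 0.06, adjusted p = 7.92e-08). The gene lies within E230016K23Rik on the opposite strand, and strand-specific counting is not stated for these data. E230016K23Rik measured 18.9, 20.6 and 20.5 FPKM in Ctrl, OGD and OGD + A-485, and neither of its changes (0.13 and -0.01 on the log2 scale) was called. The microglial marker sum moved in the same direction as Ccl6, with 582 to 601 FPKM in OGD and 1068 to 1088 with the inhibitor, and its part in the result was not tested.

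Ccl22 and Ccl17, which dendritic cells and alternatively activated macrophages make to attract T cells, were nearly silent. Ccl22 measured 0, 0.0604 and 0.0266 FPKM in Ctrl, 0, 0 and 0.0306 in OGD, and 0.471, 0.599 and 0.597 in OGD + A-485, from 3, 1 and 58 reads per group. All 3 inhibitor libraries were above all 6 others. Scaled for depth, the OGD + A-485 group held 51.5 times the reads of the OGD group (exact 95% counting interval 8.89 to 2069) and 18.9 times those of the Ctrl group (6.15 to 94.3), intervals that cover counting error only. Fitted without the filter on low values over all 54532 genes, Ccl22 was called higher in OGD + A-485 against OGD (log2 fold change 2.58, adjusted p = 0.00136, limma) and against Ctrl (2.37, adjusted p = 0.00155). Ccl17, 58753 bases away, had 0, 1 and 4 reads in the 3 groups, and with these reads no difference was detectable.

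The ratio of neighbouring ligands within each library does not depend on the scaling between libraries. Ccl6 stood at 1.42 times Ccl9 in Ctrl and 1.08 times in OGD (means of the ratios in 3 libraries), and at 11.3 times in OGD + A-485, where the 3 libraries ranged from 10.5 to 12.5. Ccl12 stood at 0.00604, 0.00687 and 0.0179 times Ccl2 in Ctrl, OGD and OGD + A-485. The Ctrl and OGD ranges of that ratio overlapped, and the inhibitor libraries were all above them. Ccl7 stood at 0.271 times Ccl2 in Ctrl, 0.478 in OGD and 0.302 in OGD + A-485, so that in OGD Ccl7 gained on Ccl2 in all 3 libraries. Ccl3 stood at 3.71, 4.09 and 4.97 times Ccl4, with all inhibitor libraries above all others. With 3 against 3 libraries an exact permutation test cannot give a p-value below 0.1, and none is given for these ratios.

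**Figure D3:**
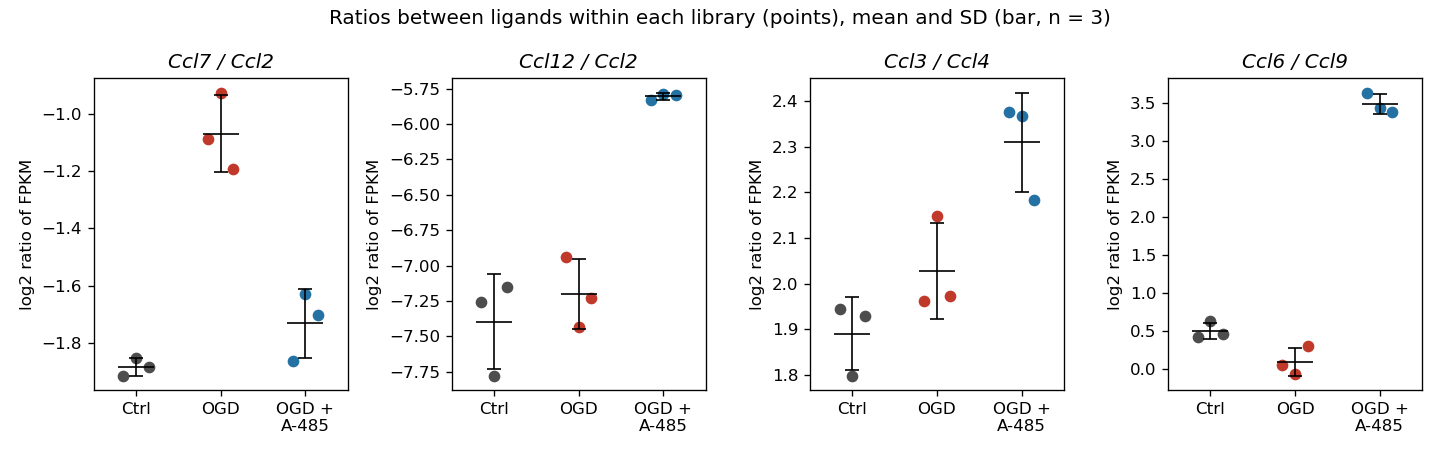
Log2 ratios of FPKM of 4 ligand pairs within each library (vertical axis, own range per pair, not starting at 0) by group. Points are libraries and bars are mean and SD (n = 3); Ccl6 against Ccl9 rises to a mean ratio of 11.3 in OGD + A-485, whereas Ccl7 against Ccl2 is highest in OGD, at 0.478.

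Neighbouring ligands on chromosome 11 differed in their change with A-485. Between Ccl9 at -1.99 and Ccl3 at -1.38 stood Ccl6 at 1.38 (log2 fold changes in OGD + A-485 against OGD). Beside Ccl2 at -0.999 and Ccl7 at -1.66 stood Ccl12 at 0.39, which was not called (adjusted p = 0.104, limma). An opposite direction was thus seen for Ccl6 only. For Ccl12 the values show the absence of a comparable fall and not a rise. The 50 nearest tested genes that are not CC ligands had median log2 fold changes between -0.08 and 0.12 around each of the 8 ligands in all 3 comparisons. Sequence shared between transcripts of different ligands was short, at most 25 bases in 1 run for Ccl6 and Ccl9, 23 for Ccl2 and Ccl7 and 17 for Ccl2 and Ccl12. Ccl2 overlaps Gm17268 on the opposite strand, which was at 0 in 7 libraries and at 1.16 and 3.23 FPKM in OGD replicates 2 and 3.

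**Figure D4:**
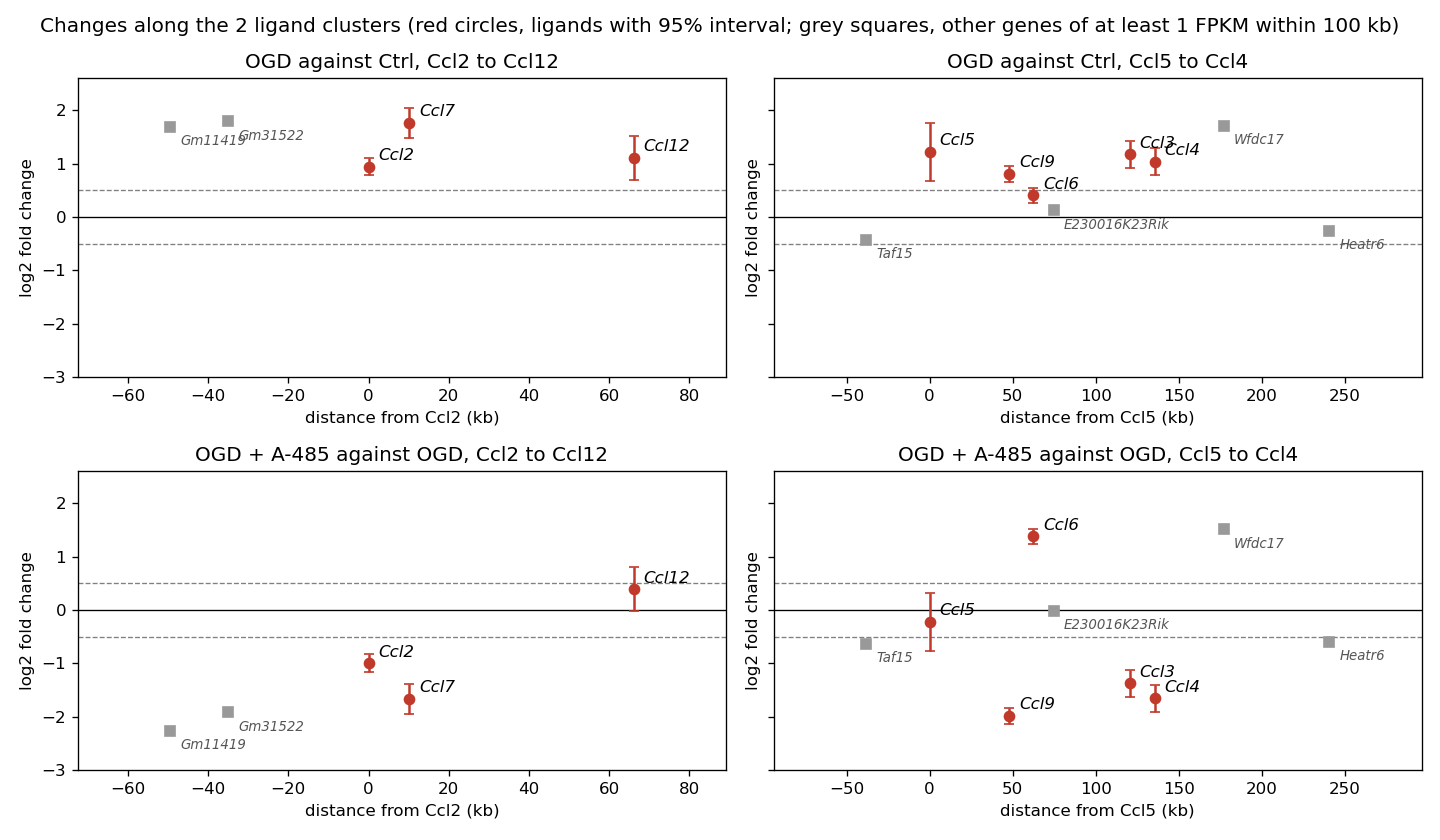
Log2 fold changes (vertical axis) of ligands (red circles, 95% interval) and of other tested genes within 100 kb whose mean reached 1 FPKM (grey squares) against distance in kb from Ccl2 (left) or Ccl5 (right), for OGD against Ctrl (top) and OGD + A-485 against OGD (bottom). In the lower right panel Ccl6, at 1.38, stands between Ccl9, at -1.99, and Ccl3, at -1.38.

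The profiles of the ligands over the 9 libraries, centred on each gene's mean log2(FPKM + 0.1), put Ccl2 and Ccl3 closest together (root mean square distance 0.17), then Ccl3 and Ccl4 (0.19) and Ccl4 and Ccl9 (0.25). Ccl6 and Ccl9 were the farthest apart, at 1.51. A search for the nearest other profile covered 10198 genes outside the CC ligands whose mean reached 1 FPKM. Gene models with Gm, Rik or accession-style names and genes on unplaced scaffolds were left out of it. Within that search, the nearest profile was that of Cast for Ccl2 (0.08), Mamdc2 for Ccl3 (0.10), Il34 for Ccl4 (0.11) and Emp1 for Ccl9 (0.07). It was Pld4 for Ccl6 (0.08), Rab15 for Ccl7 (0.17), Spsb2 for Ccl12 (0.17) and Tmem217 for Ccl5 (0.18). Pld4, nearest to Ccl6, measured 31.0, 41.1 and 103 FPKM in Ctrl, OGD and OGD + A-485, and Emp1, nearest to Ccl9, measured 19.1, 34.6 and 8.92.

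The remaining CC ligands were almost absent. Of 13 others that were listed, 1 passed the filter, Ccl25, a thymic and intestinal ligand, which measured 2.08, 1.73 and 1.64 FPKM and was not called in any comparison. Among 15 CC and atypical receptors, 4 passed the filter. Of these, 2 rose and 0 fell in OGD, and 1 rose and 3 fell with A-485. For comparison, over all genes tested, 11.2% were called higher and 9.81% lower in OGD, and 12.2% higher and 13.4% lower with A-485. Ccr1, a receptor of Ccl3, Ccl5, Ccl6, Ccl7 and Ccl9, measured 2.11, 1.73 and 1.83 FPKM in Ctrl, 6.29, 7.29 and 6.30 in OGD, and 3.50, 3.58 and 3.50 in OGD + A-485. The groups did not overlap, with log2 fold changes of 1.76 (SE 0.09, adjusted p = 2.3e-06, limma) in OGD against Ctrl and -0.89 (SE 0.09, adjusted p = 5.98e-05) in OGD + A-485 against OGD. The other three receptors that passed were named after their values were seen. Ccrl2, an atypical receptor that binds chemerin, was higher in both of these comparisons, by 1.28 and 1.25 on the log2 scale. Ccr4, the receptor of Ccl17 and Ccl22, fell by 1.56 with A-485 (SE 0.35, adjusted p = 0.00539, limma) from 0.481 FPKM in OGD. Ccr10 fell by 1.93 (SE 0.33, adjusted p = 0.00118) from 1.23 FPKM. Both rest on few reads. Ccr4 had 18 to 21 per library in OGD and 1 to 7 with A-485, and Ccr10 had 19 to 36 and 3 to 10. Ccr2, the receptor of Ccl2, reached at most 0.0308 FPKM in any library, so it was hardly detected in the cells that made its ligand.

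Cytokines that are known to induce CC ligands moved in both directions with A-485. Of 8 such genes, 5 passed the filter, of which 4 rose and 0 fell in OGD, and 1 rose and 3 fell with A-485. Over all tested genes, 11.2% were called higher and 9.81% lower in OGD, and 12.2% higher and 13.4% lower with A-485. The 5 that passed and Il13 were named after their values were seen. Tnf was at 120 ± 1.68 FPKM in the Ctrl group, at 177 ± 3.95 under OGD and at 103 ± 5.77 with the inhibitor (SD, n = 3). It rose by 0.56 and then fell by 0.78 on the log2 scale. Il1a, by contrast, was higher in both of these comparisons, by 2.47 and 1.61. Il1b rose by 1.79 in OGD, and its log2 fold change of 0.29 with A-485 was not called. Csf2, a growth factor of macrophages, rose by 1.04 and then fell by 2.12. Il4 and Il13 are inducers of Ccl17 and Ccl22 in macrophages. Il4 fell by 0.56 with A-485, at an unadjusted p of 0.00944 (limma), close to the limit of 0.01. Il13 did not pass the filter, with 0, 2 and 20 reads in Ctrl, OGD and OGD + A-485.

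Among 23 transcription factors of chemokine genes, 2 rose and 2 fell in OGD, and 6 rose and 5 fell with A-485. The counts in OGD are no larger a share of the list than the 11.2% called higher and 9.81% called lower among all genes, and those with A-485 stand beside 12.2% and 13.4%. For the 4 factors called in OGD, both comparisons are given. These share the 3 OGD libraries, so opposite signs in them are not a separate result. Junb, a subunit of AP-1, rose by 1.15 in OGD and fell by 0.60 with A-485, and the NF-kB subunit Relb rose by 0.56 and fell by 0.54. Fos, another subunit of AP-1, fell by 0.96 in OGD and rose by 1.40 with A-485, and Cebpd, a factor of the C/EBP family, fell by 0.67 and rose by 0.78. Spi1, which encodes the macrophage factor PU.1, had a log2 fold change of -0.19 in OGD, which was not called, and rose by 1.35 with A-485, from 38.5 ± 3.30 to 97.9 ± 6.40 FPKM (SD, n = 3). Stat6, the factor downstream of Il4 and Il13, had a log2 fold change of 0.25 in OGD, which was not called. It rose by 0.504 with A-485 (adjusted p = 2.54e-05, limma), barely past the 0.5 that a call required. Of 6 listed inhibitors of NF-kB and relatives of them, 3 rose and 1 fell in OGD, and 2 rose and 2 fell with A-485. Nfkbia, the inhibitor that NF-kB itself induces, rose by 0.62 in OGD and fell by 0.502 with A-485, also barely past 0.5. Nfkbid fell by 0.97 and rose by 0.95 in the same comparisons, and Tnfaip3 was higher in both, by 1.97 and 0.55. The factors and inhibitors named were chosen after their values were seen. Of 10 hypoxia targets, 9 rose in OGD, and with A-485 1 fell and 9 were not called, beside the shares of all genes given above. The 1 that fell was Egln3, named after its values were seen, with a log2 fold change of -2.65. The median of the 10 with A-485 was -0.21, and the 9 without a call were not all unchanged. Log2 fold changes were -0.42 for Slc2a1, -0.46 for Ndrg1, -0.31 for Bnip3 and 0.23 for Vegfa, each with adjusted p below 0.01 (limma). These fell short of the 0.5 that a call required, and the genes were named after their values were seen.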

How the data were processed

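RNA of BV2 cells was sequenced in 9 libraries, grouped by the sample labels into Ctrl, OGD and OGD + A-485 (n = 3 each). The authors removed low-quality reads, counted reads on genes with featureCounts and deposited FPKM together with gene length. The build in the submitters' processing notes is GRCm38 (mm10), and the aligner and annotation release are not given in the sources used here. FPKM times gene length, divided by the smallest such product of a library, gave whole reads within 0.05 for 100% of values above 0, and the divisor was not the library total.

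From the deposited FPKM, log2(FPKM + 0.1) of 16123 genes entered limma 3.58.1 (R 4.3.3), with a group mean as the only term and a prior variance that follows the mean, and Benjamini-Hochberg values run over all genes tested. Intervals are at 95%. Read ratios carry exact binomial intervals. Motifs, profiles and figures were computed with Python 3.11.15, numpy 2.4.6, pandas 2.3.3, scipy 1.17.1, biopython 1.88 and matplotlib 3.10.9. The fit was tested on simulated data. The ligands and the lists of receptors, inducers, factors, inhibitors, hypoxia targets and markers were chosen with earlier results of these data known. Genes named are the 10 ligands and receptors of a ligand with a mean of at least 1 FPKM. For each ligand, the gene with the nearest profile among those searched is also named. Others are marked in the text. Alternatives were pseudocounts of 1 and 0.01 FPKM, a minimum mean of 1 FPKM and no filter, quantile normalization, the same total per library, subtraction of the median of 50 neighbouring genes, the 2 groups of a comparison fitted alone, a block for replicate number, a prior without trend, limma-voom on the reads recovered, adjusted p-values below 0.05, and the omission of each library. One listed receptor is not reported here.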

Additional observations from a re-analysis of the deposited data

How the results depend on the processing

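The numbers of ligands called higher or lower in the 3 comparisons stayed within 1.5 times the reported number under every alternative run, except that without the filter on low values 2 ligands in place of 1 were called higher in OGD + A-485 against OGD, the second being Ccl22. Omitting any 1 library left 7 ligands called higher in OGD against Ctrl, 1 higher and 5 lower in OGD + A-485 against OGD, and 2 to 3 higher and 2 lower in OGD + A-485 against Ctrl. Of the single log2 fold changes, those whose sign turned were all in OGD + A-485 against Ctrl and none of them was called as reported. Ccl2 moved from -0.05 to 0.022 without OGD + A-485 replicate 1 (-0.13 to 0.022 over the libraries omitted), Ccl3 from -0.20 to 0.044 under quantile normalization, and Ccl7 from 0.10 to -0.062 under quantile normalization and to -0.015 with the same total per library. The calls of Ccl3 ended under quantile normalization (0.85 and -0.80), as given with that gene, and the causes were not tested. Calls of genes other than the ligands were not followed through the alternatives.

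No effect shared by libraries of the same replicate number was seen, which does not show how the cultures were handled. Deviations from the group means correlated between -0.125 and 0.072 for libraries of the same number (9 pairs) and between -0.086 and 0.132 for different numbers (18 pairs). With the replicate number as a block, 7 ligands were called higher in OGD against Ctrl, 1 higher and 5 lower in OGD + A-485 against OGD, and 3 higher and 2 lower in OGD + A-485 against Ctrl.

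Among the ligands, depth limits Ccl5, Ccl12, Ccl17 and Ccl22, which rest on 60 reads or fewer in any library. The receptors Ccr4 and Ccr10 also rest on few reads.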

Other observations

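Within 100 kb of a ligand, 17 genes that are no CC ligand passed the filter. Of these, 4 rose and 0 fell in OGD, 1 rose and 4 fell with A-485, and 11 were called in neither comparison. Over all genes tested, 11.2% were called higher and 9.81% lower in OGD, and 12.2% higher and 13.4% lower with A-485. The 6 that were called are named after their values were seen. Wfdc17, a small secreted protein gene of macrophages, lies 39308 bases from Ccl4. It was at 2.87 ± 0.678 FPKM in the Ctrl group, at 9.44 ± 0.697 under OGD and at 27.1 ± 2.62 with the inhibitor (SD, n = 3). On the log2 scale it was higher by 1.71 in OGD against Ctrl (adjusted p = 3.04e-05, limma) and by 1.51 in OGD + A-485 against OGD (adjusted p = 4.6e-05). The unnamed gene models Gm31522 and Gm11419, 15604 and 46802 bases from Ccl2, rose by 1.79 and 1.69 in OGD and fell by 1.91 and 2.27 with A-485. Both lie on the side of Ccl2 away from Ccl7 and Ccl12. Taf15 and Heatr6, at the outer ends of the Ccl5 to Ccl4 group, fell by 0.63 and 0.60 with A-485. Coq9, a coenzyme Q synthesis gene 26285 bases from Ccl17, rose by 0.505 in OGD, barely past the 0.5 that a call required. Its log2 fold change of -0.23 with A-485 was not called.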
